A study of Mus musculus with 6 samples.

Results

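Collagen VI and the fibril-associated collagens were followed as the 6 gene symbols Col6a1, Col6a2, Col6a3, Col12a1, Col14a1 and Col16a1, out of 48377 symbols in the deposited count table. They were chosen by name, with earlier results of these data known. The libraries were poly(A) RNA sequencing of skin from Db/Db mice, in which a defective leptin receptor causes obesity, diabetes and slow wound closure. There were 3 libraries from skin treated with vemurafenib (PLX4032), an inhibitor of the kinase BRAF given in the labels at 1 uM, for 16 days. The other 3 libraries came from skin treated with vehicle, titled DMSO, for 16 days. Both groups share the Db/Db background. The sources used here do not give age, sex, wound site or the number of animals, and no label ties a library to an animal of its own. Spread between libraries, on which all p-values rest, may thus be partly technical.

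Collagen VI is built from an alpha1, an alpha2 and a long alpha3 chain, encoded by Col6a1, Col6a2 and Col6a3. The chains assemble into a beaded microfilament network around cells and near basement membranes. In skin it is made mainly by fibroblasts, and inherited loss of it causes muscle weakness with skin changes in humans. Collagens XII, XIV and XVI, from Col12a1, Col14a1 and Col16a1, do not form fibrils of their own. They carry short triple-helical stretches with interruptions. Collagens XII and XIV attach to the surface of collagen I fibrils and are thought to tune how fibrils pack and slide, and collagen XVI is found near the dermal-epidermal junction and with fibrillin microfibrils.

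The promoters of Col6a1, Col6a2, Col6a3 and Col16a1 are shown, the 4 chains found in the RefSeq promoter set used here. All 4 were highest in the same library, vehicle 3, as was Col14a1. A link between this and their promoters was not tested. Each stretch ends just before the most upstream annotated start, is written 5′ to 3′ on the gene's strand in GRCm38.p6, and has matches to a GC box or CCAAT box in capitals.
Col6a1, chr10:76726169-76726294, minus strand: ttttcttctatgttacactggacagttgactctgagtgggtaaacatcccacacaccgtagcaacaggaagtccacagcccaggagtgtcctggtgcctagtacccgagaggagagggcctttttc
Col6a2, chr10:76623631-76623880, minus strand: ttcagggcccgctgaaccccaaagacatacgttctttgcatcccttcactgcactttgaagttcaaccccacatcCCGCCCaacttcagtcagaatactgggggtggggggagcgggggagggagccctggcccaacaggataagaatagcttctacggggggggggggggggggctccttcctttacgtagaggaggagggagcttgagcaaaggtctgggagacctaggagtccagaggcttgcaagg
Col6a3, chr1:90843972-90844221, minus strand: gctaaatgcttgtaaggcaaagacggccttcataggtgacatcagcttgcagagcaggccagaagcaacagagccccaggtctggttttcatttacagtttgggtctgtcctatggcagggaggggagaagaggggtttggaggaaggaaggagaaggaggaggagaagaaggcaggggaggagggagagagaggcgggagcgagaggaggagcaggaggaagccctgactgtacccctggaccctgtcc
Col16a1, chr4:130047590-130047839, plus strand: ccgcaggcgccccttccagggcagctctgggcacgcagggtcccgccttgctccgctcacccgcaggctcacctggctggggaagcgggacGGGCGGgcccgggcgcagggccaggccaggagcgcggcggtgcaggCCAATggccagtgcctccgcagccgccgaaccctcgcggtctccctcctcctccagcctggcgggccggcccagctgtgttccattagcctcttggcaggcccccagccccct

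Windows of 300 bases, 250 before and 50 after a RefSeq start, were searched on both strands for 4 motifs. The AP-1 element, bound by the Fos and Jun factors that act downstream of ERK signalling, was searched as TGACTCA or TGAGTCA. Col6a1 was the only one of these 4 genes with a match. It starts at -90 from a RefSeq start but lies inside the annotated gene, whose most upstream start is at 76726168. The Col6a1 stretch printed above therefore does not hold it.
Col6a1 AP-1 match in capitals, chr10:76726116-76726145, minus strand: tgctgatgctgTGACTCActcagctttgag
Of all 32851 RefSeq windows 5.20% hold this element. The GC box, searched as GGGCGG or CCGCCC, was in the windows of Col6a2 and Col16a1 and in 35.7% of all windows. The CCAAT box, searched as CCAAT or ATTGG, was found for Col16a1 and in 37.4% of all windows. The TATA box, searched as TATAAA or TTTATA, was in none of these windows and in 13.6% of all. A match is a run of letters and not a shown binding site.

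Few counts were assigned to genes, with 20796 to 78434 per library in the vemurafenib group and 14189 to 48798 in the vehicle group. At least 1 count was found for 16695 symbols, and 477 passed the depth filter of the test. The strand setting of the counting is not given, and some genes' counts may stem from another transcript: Actb and Gapdh held 47 and 6 counts in all, and Xist held 35 against 704 for Tsix on the opposite strand. Col6a1, Col6a2, Col6a3 and Col16a1 have no annotated gene on the opposite strand, and none of the 6 genes has 50 bp or more of exon opposite another gene's exon. Without the strand setting this does not show which strand the counts of the 6 genes came from. All 8 keratinocyte genes and all 8 fibroblast genes had counts, but some had few. Of 4460 fibroblast counts, 2950 were under Col1a1 and 1457 under Col1a2. Dcn, Lum and Dpt, also on the fibroblast list, had 4, 3 and 5 counts, and the keratinocyte gene Dsg1a had 4.

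Measured per kb of merged exon, the collagen VI chains were among the most densely counted protein-coding genes of the table. With Actb and Gapdh at 47 and 6 counts and no strand setting given, these ranks are not read as levels in skin. Col6a1 (10:76708792-76726168, minus strand, mm10, 34 merged exons) had 82.0 counts per kb over the 6 libraries and ranked at position 31 of 21647 protein-coding genes. Col6a2 (10:76595762-76623630, minus strand), its neighbour on the same chromosome, had 63.3 counts per kb, and Col6a3 (1:90765923-90843971, minus strand) had 40.7 counts per kb. The median protein-coding gene had 0.233 counts per kb, so all 3 chains lay far above it. Col16a1 (4:130047840-130099283, plus strand) had 31.9 counts per kb and Col12a1 (9:79598991-79718831, minus strand) had 14.4 counts per kb. Col14a1 (15:55307750-55520803, plus strand) was thinly counted, at 2.28 counts per kb, and was the only one of the 6 below the depth needed for the test.

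No chain passed the test between vemurafenib and vehicle. With edgeR's quasi-likelihood test, 0 of the 5 tested chains reached a Benjamini-Hochberg adjusted p under 0.05, in a table where percent called was 0 (0 of 477 genes, 23 at an unadjusted p under 0.05). The count of called genes was also 0 with DESeq2 (14 at an unadjusted p under 0.05) and with limma-voom (41). All 5 log2 fold changes were below 0, against 48.2% of the tested genes, with a median of -0.44 for the 5 chains beside 0.02 for all tested genes. The chains were measured in the same libraries, so these are not 5 separate results. In whole skin, fewer cells that make a collagen and less of its RNA per cell cannot be told apart.

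**Figure D1:**
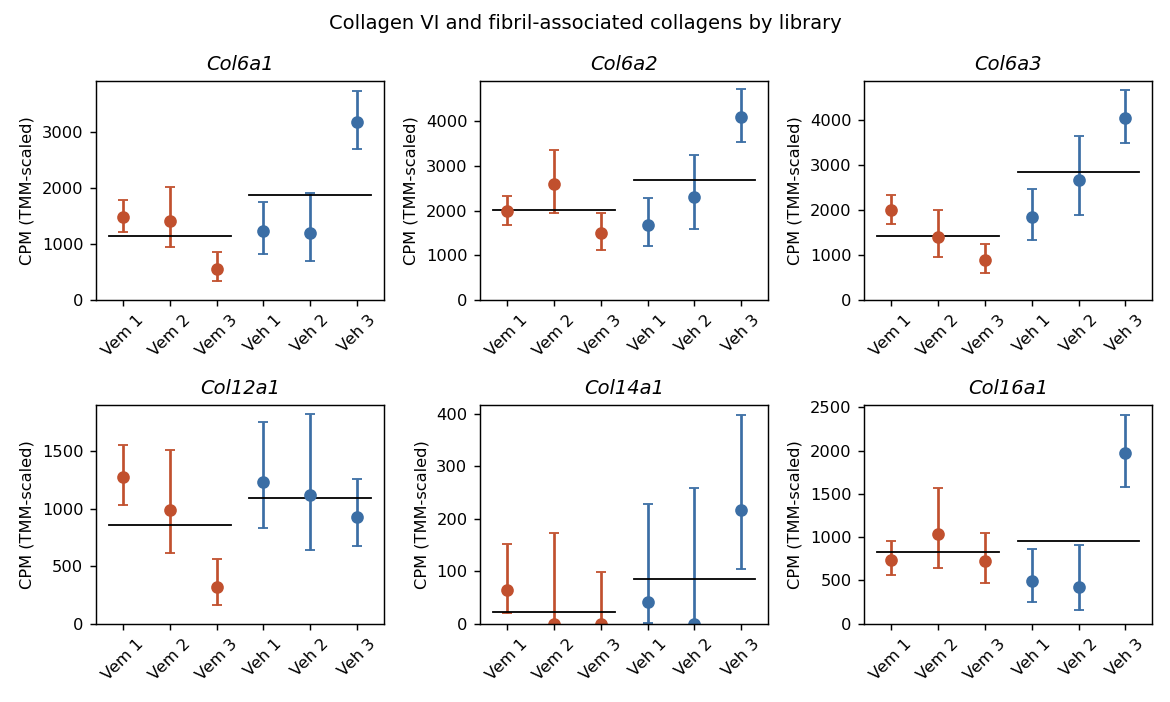
Level of each chain by library in CPM (scaled by TMM), with the 3 vemurafenib libraries (Vem) left of the 3 vehicle libraries (Veh). Points carry exact 95% Poisson intervals for counting error and black lines are group means. Vehicle 3 is the highest library for every gene except Col12a1, and vemurafenib 3 is the lowest for Col6a1, Col6a2, Col6a3 and Col12a1.

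Col6a1, the alpha1 chain needed for any collagen VI to assemble, had 114, 30 and 21 counts in vemurafenib 1, 2 and 3. In CPM, which are counts scaled to a library of 1000000, these were 1478, 1408 and 560. Vehicle 1, 2 and 3 had 30, 17 and 147 counts, or 1228, 1190 and 3180 CPM. The groups overlapped: vemurafenib 1 and 2 lay above vehicle 1 and 2, vemurafenib 3 lay lowest, and vehicle 3 stood alone at the top. Group means were 1149 ± 511 CPM with vemurafenib and 1866 ± 1138 CPM with vehicle (SD, n = 3 each). The log2 fold change of vemurafenib over vehicle was -0.74 ± 0.48 (SE, 95% interval -1.73 to 0.25, edgeR adjusted p = 0.966). Without vehicle 3 it was -0.04.

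Col6a2, the alpha2 chain, had 1984, 2582 and 1493 CPM in vemurafenib 1, 2 and 3, from 153, 55 and 56 counts. The vehicle libraries had 1678, 2310 and 4089 CPM, from 41, 33 and 189 counts. Again vehicle 3 was the highest, while vehicle 1 and 2 lay within the range of the vemurafenib libraries. This was the steadiest collagen VI chain under vemurafenib, with a highest library 1.73 times the lowest, against 2.64 times for Col6a1 and 2.27 times for Col6a3. The log2 fold change was -0.44 ± 0.44 (SE, 95% interval -1.36 to 0.48, edgeR adjusted p = 0.966), and without vehicle 3 it was 0.05.

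Col6a3, whose long chain carries many of the von Willebrand factor A domains of collagen VI and releases the fragment endotrophin, had the lowest log2 fold change of the 5. It had 1997, 1408 and 880 CPM in vemurafenib 1, 2 and 3, from 154, 30 and 33 counts. In vehicle 1, 2 and 3 it had 1841, 2660 and 4046 CPM, from 45, 38 and 187 counts. Only vemurafenib 1 and vehicle 1 crossed, and every other vemurafenib library lay below every vehicle library. Of the 5 tested chains this was the one with an unadjusted p under 0.05 (0.0369 from edgeR), which 2.31% of the tested genes reached on the lower side, and the adjusted p was 0.89. The log2 fold change was -0.99 ± 0.45 (SE, 95% interval -1.92 to -0.07), and it was -0.60 without vehicle 3, -0.67 without vemurafenib 3 and -1.34 without vemurafenib 1. It stayed below 0 without each library in turn. In CPM 0 of the 5 tested chains separated the groups, where 8.81% of tested genes did so and 4.19% on the lower side.

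Col12a1, a fibril-surface collagen of dense and mechanically loaded connective tissue, followed another order of libraries. Its levels were 1271, 986 and 320 CPM in vemurafenib 1, 2 and 3, from 98, 21 and 12 counts. Vehicle 1, 2 and 3 had 1228, 1120 and 930 CPM, from 30, 16 and 43 counts. Here vehicle 3 was the lowest of its group, and the vehicle libraries spanned only 1.32-fold, while the vemurafenib libraries spanned 3.97-fold. The means were 859 ± 488 CPM with vemurafenib and 1093 ± 151 CPM with vehicle (SD, n = 3 each). The log2 fold change was -0.32 ± 0.45 (SE, 95% interval -1.26 to 0.62, edgeR adjusted p = 0.995). It was 0.15 without vemurafenib 3 and -0.79 without vemurafenib 1.

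Col16a1, a minor collagen of the upper dermis, had 739, 1033 and 720 CPM in vemurafenib 1, 2 and 3, from 57, 22 and 27 counts. The vehicle libraries had 491, 420 and 1969 CPM, from 12, 6 and 91 counts. Vehicle 1 and 2 were thus the lowest of the 6 libraries and vehicle 3 the highest, with all vemurafenib libraries between them. The log2 fold change was -0.34 ± 0.49 (SE, 95% interval -1.34 to 0.67, edgeR adjusted p = 0.995). Its direction was not stable: the value turned to 0.85 without vehicle 3 and to 0.020 with limma-voom.

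Col14a1, the close relative of Col12a1 on fibril surfaces, had 5, 0 and 0 counts in vemurafenib 1, 2 and 3 and 1, 0 and 10 counts in vehicle 1, 2 and 3. A count of 0 allows a level of up to 144 CPM in vemurafenib 2, 78.3 CPM in vemurafenib 3 and 211 CPM in vehicle 2, taking 3 counts over the unadjusted library total. The exact 95% Poisson intervals on TMM-scaled totals reached 173, 98.4 and 258 CPM in the same libraries. Such limits and all intervals on counts cover counting error only. With genes of at least 10 counts in total kept, the fitted log2 fold change was -1.66 ± 0.93 (SE, edgeR adjusted p = 0.97). Of its 11 vehicle counts 10 were in vehicle 3, so a difference between groups was not detectable from so few counts.

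**Figure D2:**
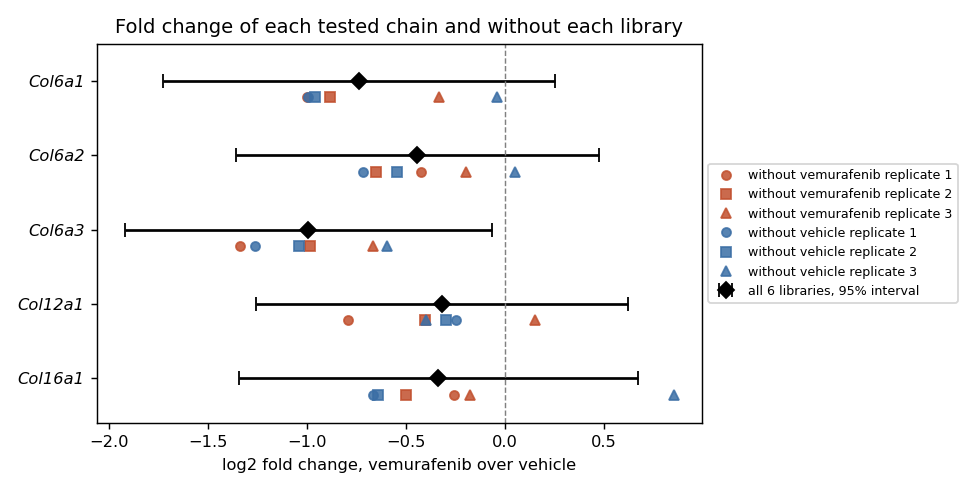
Log2 fold change of vemurafenib over vehicle for the 5 tested chains. Black diamonds use all 6 libraries with 95% intervals from the edgeR fit, and coloured marks show the value when 1 library is left out. Col6a3 stays below 0 throughout, while Col6a2 and Col16a1 pass 0 without vehicle 3 and Col12a1 without vemurafenib 3.

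Per length, Col6a1 and Col6a2 were near each other and Col6a3 was lower. With vemurafenib Col6a1 averaged 262 ± 117 CPM per kb, Col6a2 243 ± 65.5 and Col6a3 119 ± 46.7, and with vehicle the levels were 426 ± 260, 323 ± 150 and 238 ± 93.1 CPM per kb (SD, n = 3 each). The order Col6a1, Col6a2, Col6a3 was the same in both groups, but Col6a1 and Col6a2 did not differ beyond their spread. Col16a1 averaged 123 ± 26.0 CPM per kb with vemurafenib and 142 ± 130 with vehicle, and Col12a1 averaged 56.4 ± 32.0 with vemurafenib and 71.8 ± 9.89 with vehicle. Merged exon length includes exons that skin may not use, which lowers the per-length level of a gene with many isoforms. It was 4.38 kb in 34 merged exons for Col6a1 and 8.326 kb in 29 for Col6a2. By counts Col6a2 stood at 1.29 to 2.67 times Col6a1 over the 6 libraries. The nearness and order of these chains per length thus depend on the lengths used. Whether skin uses all of the Col6a2 exons was not tested.

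Ratios between chains within a library do not depend on its scaling. Col6a3 held 26.5%, 19.0% and 22.1% of the 6-gene counts in vemurafenib 1, 2 and 3 (Wilson 95% intervals 23.1% to 30.2%, 13.6% to 25.8% and 16.2% to 29.5%). In vehicle 1, 2 and 3 its share was 28.3%, 34.5% and 28.0% (21.9% to 35.8%, 26.3% to 43.8% and 24.8% to 31.6%). Every vemurafenib library thus lay below every vehicle library, by a narrow margin for vemurafenib 1. The mean share was 22.5% ± 3.78 with vemurafenib and 30.3% ± 3.68 with vehicle (SD, n = 3 each), a difference of -7.75 percentage points, or -4.41 with counts pooled per group. An exact permutation test gave a two-sided p of 0.1, the smallest that 3 against 3 libraries allow, and 0.6 after adjustment over the 6 genes. Among the 472 tested genes outside the 6, counts taken relative to the same 6-gene total did not overlap between the groups for 9.53%, and for 0.212% on the lower side. That total itself averaged 6308 ± 2023 CPM with vemurafenib and 9546 ± 4273 CPM with vehicle (SD, n = 3 each), and it contains Col6a3, so nothing is read from these percentages.

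The other shares overlapped between the groups, and several moved when counts were pooled per group. Col6a2 made up 32.9% ± 5.86 of the 6-gene counts with vemurafenib and 28.0% ± 2.12 with vehicle, and Col16a1 made up 14.0% ± 4.16 with vemurafenib and 8.88% ± 4.25 with vehicle. With pooled counts these differences were 1.63 and 0.29 percentage points, against 4.87 and 5.07 as means of libraries. For Col6a1 the shares were 17.6% ± 3.02 with vemurafenib and 18.8% ± 3.29 with vehicle, and for Col12a1 12.7% ± 4.43 with vemurafenib and 13.3% ± 6.31 with vehicle (SD, n = 3 each throughout). The exact permutation test gave p between 0.2 and 0.9 for these genes and Col14a1. Within collagen VI, Col6a3 had 1.01, 0.545 and 0.589 counts per Col6a2 count in vemurafenib 1, 2 and 3 and 1.10, 1.15 and 0.989 in vehicle 1, 2 and 3. The alpha3 to alpha2 ratio of counts was thus close to even in all vehicle libraries and in vemurafenib 1, and lower in vemurafenib 2 and 3.

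**Figure D3:**
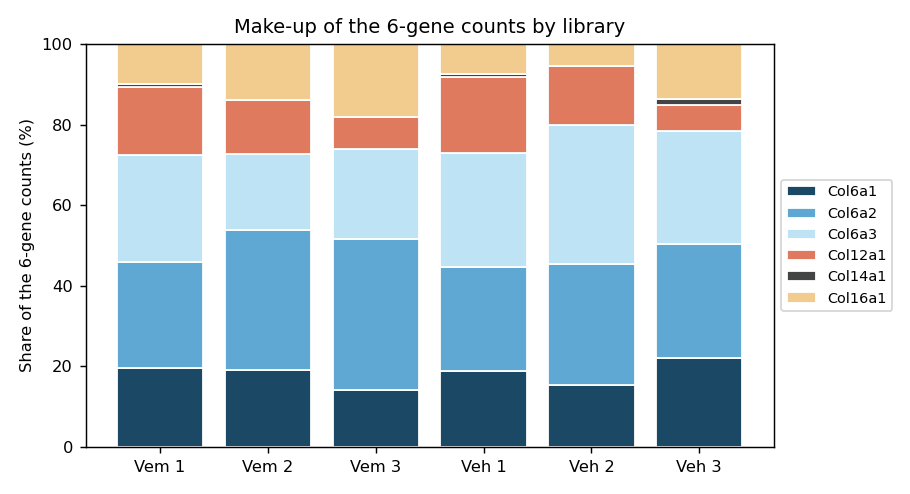
Share of the counts of the 6 genes held by each gene in each library, in percent, vemurafenib libraries (Vem) left of vehicle libraries (Veh). Col6a3 takes 19.0% to 26.5% in the vemurafenib libraries and 28.0% to 34.5% in the vehicle libraries, and the Col12a1 share is smallest in vemurafenib 3 (8.05%) and vehicle 3 (6.45%).

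Between the collagen VI chains r was positive over the 6 libraries, but no pair passed after adjustment. On log2 CPM, Col6a1 and Col6a2 had Pearson r = 0.90 (exact permutation p = 0.0208) and Spearman rho = 0.71 (p = 0.136). For Col6a1 with Col6a3 r was 0.88 (exact permutation p = 0.05) and rho 0.60 (p = 0.242), and for Col6a2 with Col6a3 r was 0.79 (p = 0.0611) and rho 0.66 (p = 0.175). After adjustment over the 15 pairs of the 6 genes the permutation p of r was 0.229 for each of these, and 0 of 15 pairs passed. Vehicle 3 and vemurafenib 3 were the farthest from the median of the collagen VI chains. Without them r was 0.23, -0.56 and -0.17 for the 3 pairs, so the positive values rest on those libraries. Leaving out the extremes narrows the range to 4 libraries, which by itself can lower r. With each group centred on its own mean, r was between 0.81 and 0.90.

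Col16a1 went with Col6a2 (r = 0.76) and Col6a1 (r = 0.66) more closely than with Col6a3 (r = 0.35), although these values were not tested against each other. Col12a1 had r of 0.62, 0.34 and 0.64 with Col6a1, Col6a2 and Col6a3 and -0.11 with Col16a1. Over these 7 pairs rho lay between -0.31 and 0.77, with permutation p between 0.103 and 0.919. For r the permutation p lay between 0.0806 and 0.797, or 0.242 and 0.797 after adjustment, so none passed. Without the 2 farthest libraries r was between -0.91 and 0.86. The 5 pairs with Col14a1 rest on its 16 counts.

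**Figure D4:**
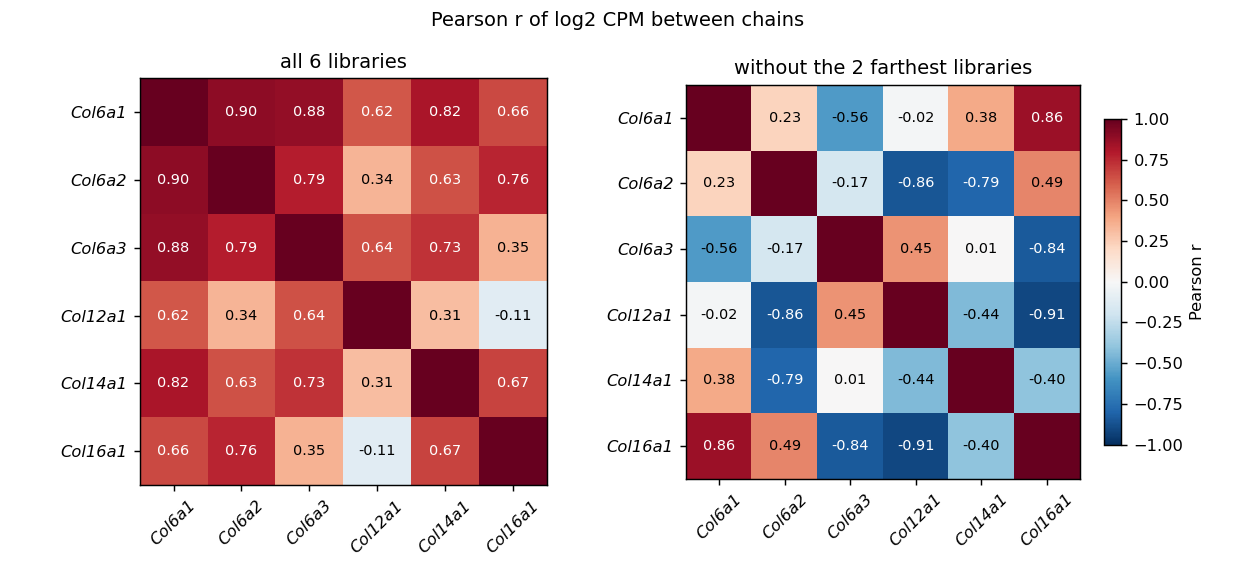
Pearson r of log2 CPM between each pair of chains, over all 6 libraries (left) and without the 2 libraries farthest from the median of the first gene of the pair (right). The collagen VI pairs have r of 0.79 to 0.90 on the left and -0.56 to 0.23 on the right.

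Likeness to the mean of the 5 tested chains was measured for the other tested genes. Of 472 genes, Aebp1, whose secreted product binds collagen, had the highest Pearson r over the 6 libraries, 0.99. It was followed by Col1a2 (0.99) and Col1a1 (0.97), the chains of collagen I, by Gm44752 (0.97), a feature annotated as antisense, and by Hspg2 (0.96), which encodes the basement membrane proteoglycan perlecan. The median r of all tested genes was -0.06, and 13 genes were above 0.9. Among the other tested fibrillar collagens Col5a1 (0.94), Col5a2 (0.94) and Col27a1 (0.91) were also above 0.9. Not all were as close, with r of 0.82 for Col3a1 and 0.37 for Col5a3. Libraries share depth and tissue make-up, so these values describe likeness and are given without a test.

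The genes that collagen VI and its relatives work with were read from lists chosen with earlier results known. Of the fibrillar collagens, 7 of 11 genes were tested, 0 passed and 6 lay below 0, with a median log2 fold change of -0.58 beside 0.02 for all tested genes. Col1a1 had 10743 ± 4220 CPM with vemurafenib and 15648 ± 5709 CPM with vehicle (log2 fold change -0.55 ± 0.49), and Col3a1 had 9922 ± 3084 CPM with vemurafenib and 16665 ± 6687 CPM with vehicle (-0.75 ± 0.49, SE, edgeR adjusted p = 0.966 for both). Against them the 6 genes held a similar proportion in each library. There were 4.60, 5.58 and 4.77 fibrillar counts for each count of the 6 genes in vemurafenib 1, 2 and 3, and 4.75, 5.97 and 4.71 in vehicle 1, 2 and 3. This ratio thus spanned 4.60 to 5.97 in libraries whose 6-gene total ran from 3973 CPM in vemurafenib 3 to 14431 CPM in vehicle 3.

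The remaining chains of the same families were hardly counted. Col6a5 and Col6a6, alternatives to the alpha3 chain, had 5 and 3 counts in all, and Col6a4 had 0. Of 6 further fibril-associated collagens measured, 4 had no count, and Col20a1 and Col9a3 had 2 and 1. Matrix partners totalled 1780 ± 764 CPM with vemurafenib and 2779 ± 1612 CPM with vehicle over 12 genes, of which 2 were tested and 0 passed. These were Hspg2, with 575 ± 177 CPM with vemurafenib and 954 ± 577 CPM with vehicle (log2 fold change -0.79 ± 0.47), and the fibronectin gene Fn1, with 500 ± 501 CPM with vemurafenib and 677 ± 450 CPM with vehicle (-0.42 ± 0.66), whose exons lie opposite those of Apol7d.

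No receptor, processing or protease gene reached the tested depth. The 10 receptor genes totalled 668 ± 70.6 CPM with vemurafenib and 801 ± 390 CPM with vehicle. Their most counted members were Itgb1, the integrin beta1 subunit shared by the collagen-binding integrins, with 58 counts, and Itga11, a collagen-binding alpha subunit of fibroblasts, with 31. The 15 genes of collagen modification and folding totalled 894 ± 268 CPM with vemurafenib and 1089 ± 537 CPM with vehicle, led by the crosslinking enzymes Lox (47 counts) and Loxl1 (42 counts). Breakdown genes totalled 674 ± 169 CPM with vemurafenib and 858 ± 664 CPM with vehicle over 9 genes, led by the proteases Mmp14 (85 counts) and Mmp2 (42 counts). All 3 totals were highest in vehicle 3, at 1125, 1644 and 1623 CPM, and all overlapped between the groups.

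Vehicle 3 and vemurafenib 3, the libraries that set the extremes of collagen VI, also stood apart in epidermal and follicle markers. Keratinocyte genes totalled 2930, 3803 and 5093 CPM in vemurafenib 1, 2 and 3 and 2783, 4410 and 1277 CPM in vehicle 1, 2 and 3, with all 8 genes counted. Inner root sheath genes, of the sheath around the growing hair, totalled 169, 141 and 7626 CPM with vemurafenib and 246, 490 and 64.9 CPM with vehicle, with Krt28 at 0 of its 6 genes. Where collagen was high, in vehicle 3, both marker totals were thus at their lowest, and in vemurafenib 3 both were at their highest. Tchh held 276 of the 318 inner root sheath counts, and 245 of its counts were in vemurafenib 3. In vehicle 3 Tchh had 2 counts and Krt25 had 1. Single keratinocyte genes did not all follow: Krt10 had 20 counts in vehicle 3 against 13 in the larger vemurafenib 1. Krt5 did, with 1 against 19. Dsp held 71 counts in vemurafenib 3, the most of any keratinocyte gene there. The part of these markers in the collagen values was not tested.

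Adipocyte genes totalled 298 to 1120 CPM with vemurafenib and 173 to 700 CPM with vehicle, with Adipoq at 0. Of their 106 counts 92 were under Lipe, whose exons lie opposite those of 4732471J01Rik. Macrophage genes totalled 453 to 648 CPM with vemurafenib and 490 to 563 CPM with vehicle, with Adgre1 at 0. Of their 124 counts 67 were under Csf1r, whose exons lie opposite those of Hmgxb3. With no strand setting given, counts under Lipe and Csf1r may stem from those opposite genes. Endothelial genes totalled 80.0 to 156 CPM with vemurafenib and 70 to 151 CPM with vehicle. Nerve and Schwann cell genes totalled 26.7 to 188 CPM with vemurafenib and 70 to 327 CPM with vehicle. Skeletal muscle genes totalled 169 to 188 CPM with vemurafenib and 238 to 490 CPM with vehicle. These totals did not overlap. Of single tested genes 8.81% did not overlap, and 4.19% on the lower side. None of the 6 muscle genes reached the tested depth, so these percentages are not a like comparison. The muscle totals came from 50 counts, while Acta1, Myh1 and Myh4 were at 0. Of these counts 40 were under Ttn, whose exons lie opposite those of Gm13938. Their part was not tested either.

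Counts were also listed under a feature on the opposite strand of the Col12a1 locus. 4930562D21Rik (9:79688776-79690907, plus strand), annotated as antisense, lies in an intron of Col12a1, 1121 bp from its nearest exon. It was singled out after its values were seen. It held 36, 9 and 4 counts in vemurafenib 1, 2 and 3 and 30, 9 and 26 counts in vehicle 1, 2 and 3, 114 in all beside 220 for Col12a1. Per kb of exon this was 65.1 counts, against 14.4 for Col12a1. Because the strand setting is not given, reads of Col12a1's intron and of the feature cannot be told apart. Over the 6 libraries its log2 CPM had r = 0.88 (exact permutation p = 0.0472) and rho = 0.54 (p = 0.297) with Col12a1, and r = 0.84 without the 2 farthest libraries. In CPM it had 332 ± 196 with vemurafenib and 807 ± 366 with vehicle (SD, n = 3 each), with no overlap between the groups, as for 8.81% of tested genes. The log2 fold change was -1.24 ± 0.49 (SE, edgeR adjusted p = 0.874), and it was -0.75 without vemurafenib 3 and -0.82 without vehicle 1.

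Set against Col12a1, the feature took a smaller share in every vemurafenib library. It made up 26.9%, 30% and 25% of the counts of both genes in vemurafenib 1, 2 and 3 and 50%, 36% and 37.7% in vehicle 1, 2 and 3. The mean was 27.3% ± 2.53 with vemurafenib and 41.2% ± 7.64 with vehicle (SD, n = 3 each, exact permutation test, two-sided, p = 0.1, the smallest possible). Because the feature was chosen after its values were seen, neither this p nor that of r above counts as support. No such share of other gene pairs stands beside it. Single intervals were wide and overlapped, such as 16.7% to 47.9% in vemurafenib 2 and 20.2% to 55.5% in vehicle 2 (Wilson, 95%). At the Col14a1 locus the antisense gene 1700040F17Rik had 3 counts.

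**Figure D5:**
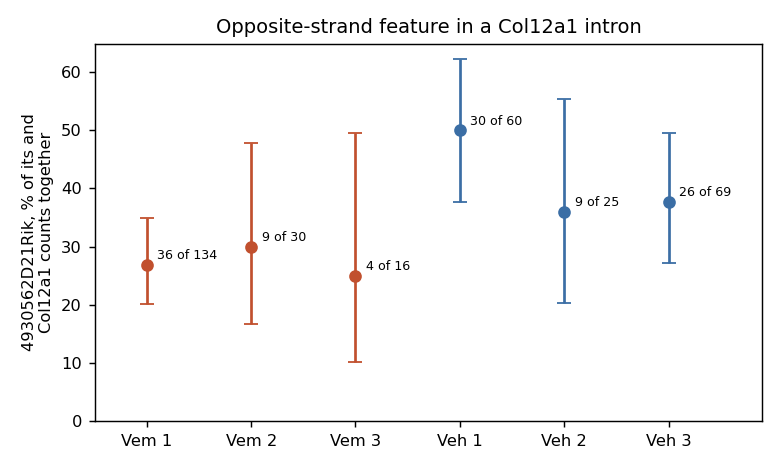
Counts of 4930562D21Rik as a percentage of its counts and those of Col12a1 together, by library, vemurafenib (Vem) left of vehicle (Veh). Bars are Wilson 95% intervals and labels give the counts. The vemurafenib libraries lie at 25% to 30% and the vehicle libraries at 36% to 50%. The feature was chosen after its values were seen.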

How the data were processed

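The deposited values are whole-number counts per gene symbol, 1 column per library. HISAT2, HTSeq and mm10 are named, per the submitters' processing notes; the sources used here give no versions, annotation or strand setting. A column that matches no sample (1 in all) was left out. Library totals ran from 14189 to 78434.

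Counts were tested as deposited, with group as the only term, by edgeR 4.0.16 (R 4.3.3): filterByExpr (smallest count 10, total 15), TMM scaling, robust quasi-likelihood, Benjamini-Hochberg adjustment over all 477 tested genes. Standard errors were derived from the F statistic, and intervals from its degrees of freedom. For correlations the log2 CPM had 2 as prior count. Alternatives were other scalings, filters and tests (DESeq2 1.42.0, limma 3.58.1), a replicate block and leaving out each library. GENCODE M21, also mm10, gave positions and exons (98.9% of symbols matched once), and RefSeq gave promoters. Sums of lists are CPM added per library. Members and lists were chosen with earlier results of these data known. Named were the 6 genes, of each list those with most counts (up to 2), the 5 genes most like the chains, and genes opposite their exons. Genes outside this rule served as checks of strand, markers or shared pattern.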

Additional observations from a re-analysis of the deposited data

How the results depend on the processing

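The 0 genes called with edgeR became 3 with no filter beyond 1 count, 2 with at least 1 CPM in 3 libraries and 3 with at least 10 counts in total, all higher with vemurafenib and none of them among the 6 collagen genes. Leaving out 1 library gave 0 to 2 calls, all higher, with the 2 found without vemurafenib 1. Other scalings, DESeq2, limma-voom, the replicate block and leaving out the 20 most abundant genes, which removed Col6a2 and Col6a3 themselves, gave 0. No collagen chain passed under any alternative run. Leaving out 1 library moved the log2 fold change of Col6a1 between -0.998 and -0.04, Col6a2 between -0.72 and 0.050, Col6a3 between -1.34 and -0.60, Col12a1 between -0.79 and 0.15 and Col16a1 between -0.67 and 0.85. That of Col16a1 also turned to 0.020 with limma-voom and to 0.0097 with the replicate block, and the cause was not tested. Same-numbered libraries did not deviate together (correlations of 0.04, -0.08 and -0.33), and the block changed no call. The no-filter setting moved the median of the 477 genes to 0.23.

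The share difference of Col6a3 ran from -9.73 to -5.62 percentage points without 1 library and was -4.41 with counts pooled per group. The share difference of Col6a1 ran from -2.89 to 0.52 and that of Col12a1 from -3.97 to 2.24, and with pooled counts Col12a1 turned to 5.24, while Col6a2 and Col16a1 shrank to 1.63 and 0.29. Without the 2 farthest libraries r turned negative for Col6a1 with Col6a3 (-0.56) and Col12a1 (-0.017), Col6a2 with Col6a3 (-0.17), Col12a1 (-0.86) and Col14a1 (-0.79), Col6a3 with Col16a1 (-0.84), and Col14a1 with Col12a1 (-0.44) and Col16a1 (-0.40). With 4 libraries left no count of passing pairs was made. The share difference of 4930562D21Rik, an alternative chosen after seeing the data, ran from -16.6 to -9.55 percentage points without 1 library. Low counts limit Col14a1 most.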
